A study of Trichoderma reesei with 24 samples.

Results

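Genes that were lower in the Δ*nsd3* strain than in WT in every condition sequenced are described here. Nsd3 is the *Trichoderma reesei* homolog of NsdC, a C2H2 zinc finger transcription factor of Aspergilli. For each of the 8755 genes in the deposited table, the mean of log2(TPM + 1) over the 3 WT libraries was subtracted from that over the 3 Δ*nsd3* libraries. Genes were kept where this difference was −0.6 or less and the highest Δ*nsd3* library lay below the lowest WT library in all 4 conditions. This gave 78 genes, or 0.891% of the table. Of these, 12 were left out because their mean TPM over the 12 Δ*nsd3* libraries was 10% or less of that over the 12 WT libraries, *nsd3* itself among them, which left 66 genes. The strain difference chose these genes, so its values are given as a description without a test.

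The RNA came from mycelia of 2 strains. The WT was TU6, which comes from QM9414 and cannot make its own uridine, and CRISPR-Cas9 was used on it to make the Δ*nsd3* strain (genotype nsd3::pyr4). Since *pyr4* was the selection marker, the loss of *nsd3* and the return of *pyr4* cannot be told apart in these libraries. By the naming in the study, the Δ*nsd3* strain is a single transformant, so all Δ*nsd3* libraries stand for 1 clone. Each strain was grown for 24 h on glucose, for 24 h on glycerol, or for 8 h or 48 h on cellulose after 24 h on glycerol, with 3 libraries in each of the 8 groups. The labels do not say whether replicates were grown on separate days, so errors measure the spread between these libraries. Uridine was added to the medium when needed. TPM is a read count scaled for gene length and for the total of the library.

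In the library check, *nsd3* (TRIREDRAFT_75672) had 0 to 2.42 TPM in the Δ*nsd3* libraries and 32.2 to 278 TPM in the WT libraries. Depth, estimated from the steps between low TPM values, was 18.2 to 45.9 M reads in 23 libraries and 239 M in the remaining one, Δ*nsd3* replicate 3 on glycerol. The estimate fitted that library least well, with 58.4% of its low values within 0.1 of a whole read against 74.6% to 79.3% in the others, so its depth is uncertain. Without that library, the rule gave 62 genes, all of them among the 66. Without WT replicate 2 at 48 h on cellulose, the rule gave 101 genes, 65 of the 66 among them. Of the mycelial markers, *tef1a*, a translation elongation factor, had 2128 to 6223 TPM over the 24 libraries. The other, *hfb1*, the hydrophobin of vegetative mycelium, had 541 to 2521 TPM on glucose but 2.8 to 9.95 TPM at 8 h on cellulose. *hfb2*, taken as a conidial marker, had 636 to 2538 TPM on glucose and 23986 to 156494 TPM in the same 8 h libraries. Both hydrophobins thus differed between carbon sources, so their values do not show which cell types a library held. The part of these differences between libraries in the results below was not tested.

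All 66 genes were in the RefSeq gene table, but only *hfb2* and *hex1* had a symbol there. Hydrophobins are small secreted proteins that coat fungal surfaces exposed to air, and *hfb2* encodes a class II hydrophobin known from sporulating cultures. *hex1* encodes the main protein of the Woronin body, an organelle that in *Neurospora crassa* plugs the septal pore after wounding. The other 64 genes are given by their identifiers, with no function, since the tables used here describe none. In bulk RNA, fewer cells of a type and less RNA per cell cannot be told apart.

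The median difference of the 66 genes was −1.32 on glucose, −1.28 on glycerol, −1.65 at 8 h on cellulose, and −1.19 at 48 h. Over the 7933 genes that reached 1 TPM in 3 or more libraries, a filter that all 66 passed, the medians were −0.16, 0.29, −0.15, and 0.03 in the same order. The criterion that chose the genes was met in a single condition by 16.6% of the table on glucose, 5.57% on glycerol, 17.2% at 8 h, and 10.7% at 48 h. The absence of overlap alone, with Δ*nsd3* lower, was met by 37.5%, 10.1%, 31.5%, and 17.4% in the same order and by 1.82% in all 4 conditions. A difference of −1 or less in all 4 conditions was found in 25 genes and one of −2 or less in 1 gene, TRIREDRAFT_5095. The difference was at its most negative at 8 h in 33 of the 66 genes, on glucose in 12, at 48 h in 11, and on glycerol in 10. Over all genes tested, 8 h was the most negative condition in 32.8%, glucose in 37.3%, 48 h in 22.2%, and glycerol in 7.65%. This order depended on the scaling. With the median of ratios, the median difference was −1.608 on glycerol and −1.498 at 8 h, and the most negative condition was 8 h in 24 genes and glycerol in 22. Averaged over the 12 libraries of each strain, TPM in the Δ*nsd3* strain was 10.7% to 57.3% of WT, with a median of 33.9%. For genes with few TPM, the added 1 makes these differences smaller than the change in TPM.

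**Figure D1:**
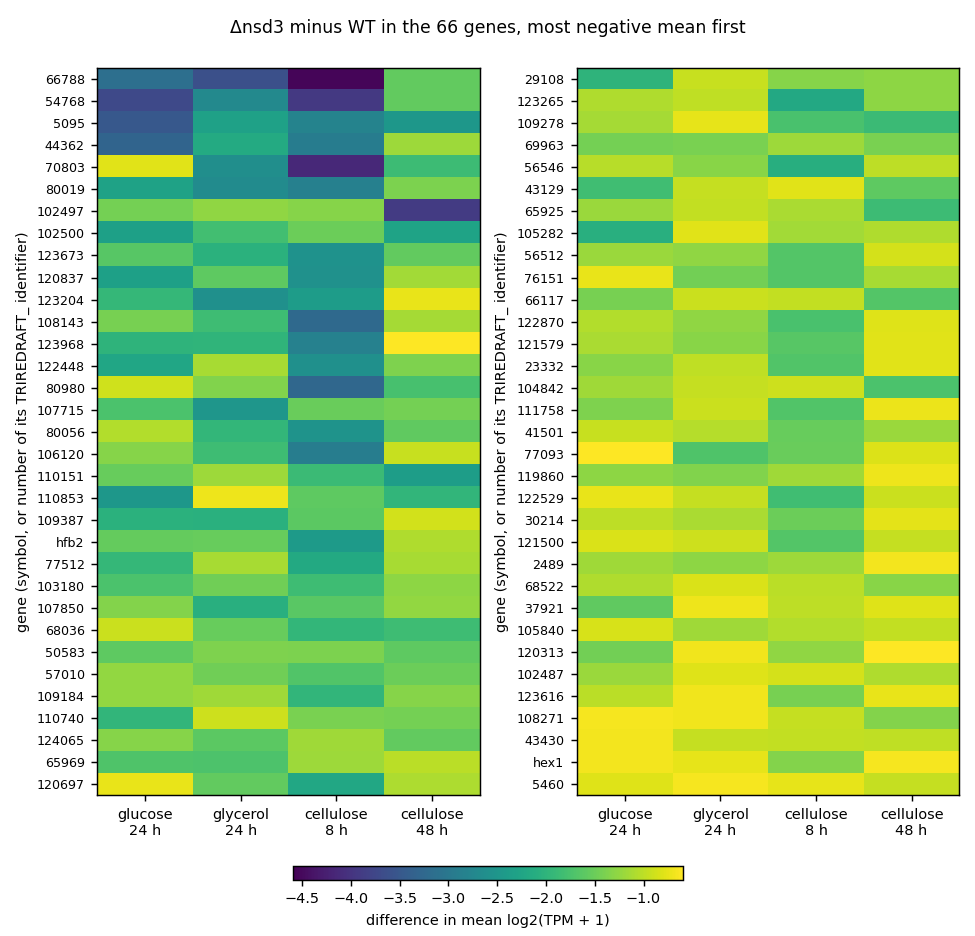
Difference in mean log2(TPM + 1), Δ*nsd3* minus WT, for each of the 66 genes (rows) in the 4 conditions (columns), with the most negative mean first (left block, then right block). Colours run from −0.6 (yellow) to −4.6 (dark violet), and 33 of the genes have their most negative value at 8 h on cellulose.

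*hfb2* (TRIREDRAFT_119989) was the most abundant of the 66. On glucose, it had 661, 636, and 763 TPM in the Δ*nsd3* libraries and 2497, 2538, and 1242 TPM in the WT libraries. On glycerol, it had 37354, 31615, and 26373 TPM in the Δ*nsd3* libraries and 95972, 100063, and 77168 TPM in the WT libraries. After 8 h on cellulose, it had 23986, 32722, and 26434 TPM in the Δ*nsd3* libraries and 137794, 147289, and 156494 TPM in the WT libraries. WT replicate 3 on glucose was the lowest WT library, and it was still above the Δ*nsd3* libraries of its condition. After 48 h, *hfb2* had 63683, 56384, and 55914 TPM in the Δ*nsd3* libraries and 130717, 128558, and 112168 TPM in the WT libraries. The difference was −1.54 on glucose, −1.52 on glycerol, −2.42 at 8 h, and −1.08 at 48 h (SE 0.22 each, from a variance shared by all conditions).

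In the WT libraries on glycerol and cellulose, *hfb2* ranked first of all genes and made up 9.09% to 18.0% of the listed TPM, against 2.83% to 7.42% in the corresponding Δ*nsd3* libraries. In those Δ*nsd3* libraries it ranked first or second. Since TPM is a share of the whole, so large a share lowers the values of every other gene in the same library, most of all in WT. With *hfb2* left out and each library rescaled to the same total, an alternative added after the data were seen, the rule kept 65 of the 66 and reached 99 genes. The median difference of the 66 genes was then −1.35 on glucose, −1.43 on glycerol, −1.88 at 8 h, and −1.34 at 48 h.

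*hex1* (TRIREDRAFT_123056) was the second most abundant, and its differences lay near the limit of the rule. On glucose, it had 3590, 3055, and 3152 TPM in the Δ*nsd3* libraries and 5563, 5174, and 4807 TPM in the WT libraries. On glycerol, it had 5337, 5358, and 4796 TPM in the Δ*nsd3* libraries and 10497, 8757, and 7036 TPM in the WT libraries. At 8 h on cellulose, it had 4413, 4200, and 4027 TPM in the Δ*nsd3* libraries and 9918, 10085, and 12313 TPM in the WT libraries. The strains were furthest apart at this time, with a difference of −1.35 (SE 0.15). At 48 h, it had 4023, 3685, and 3861 TPM in the Δ*nsd3* libraries and 6636, 5344, and 6325 TPM in the WT libraries. The difference was −0.67 on glucose, −0.75 on glycerol, and −0.66 at 48 h. *hex1* did not meet the rule after rescaling by the median of ratios, after quantile normalization, or without WT replicate 1 at 48 h.

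**Figure D2:**
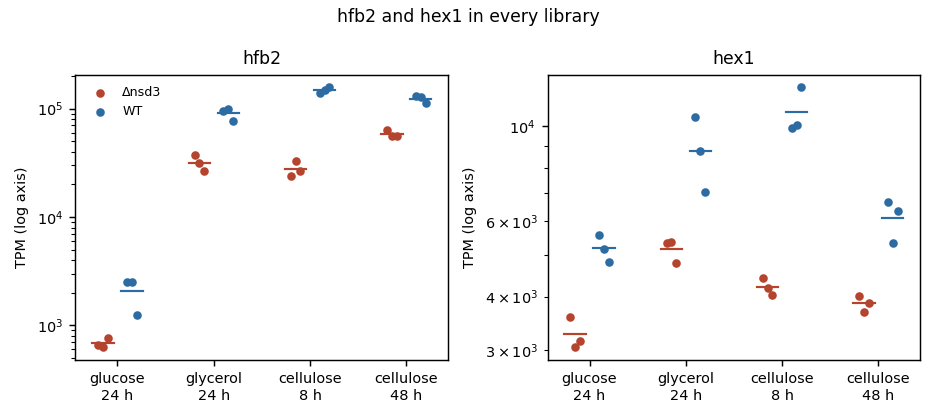
TPM of *hfb2* (left) and *hex1* (right) on log axes, by condition. Each point is a library (Δ*nsd3* red and left of WT blue), and short lines are means of 3. The strains do not overlap in any condition, and the WT libraries of *hfb2* reach 156494 TPM at 8 h on cellulose.

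The other hydrophobins with a symbol, *hfb1* and *hfb3*, were not among the 66 and were looked at after their values were known. *hfb3* (TRIREDRAFT_123967), another hydrophobin, was called lower in the Δ*nsd3* strain in 3 conditions by limma (log2 fold change of −1 or less, adjusted p-value under 0.05). Its log2 fold change was −1.06 on glucose (SE 0.23, adjusted p = 0.001), −1.60 on glycerol (adjusted p = 1e-05), and −1.80 at 8 h (adjusted p = 9.9e-07). At 48 h, it had 5153, 5044, and 5031 TPM in the Δ*nsd3* libraries and 7734, 5674, and 7374 TPM in the WT libraries, a log2 fold change of −0.44 (adjusted p = 0.13). The calls in the same direction over all genes tested were 6.45% on glucose, 3.1% on glycerol, 8.11% at 8 h, and 4.16% at 48 h. *hfb1* (TRIREDRAFT_73173) was called in no condition by this test. Its largest log2 fold change was 1.46 on glucose (SE 0.56, adjusted p = 0.05 after rounding, not under the limit), where it had 2156, 2521, and 1570 TPM in the Δ*nsd3* libraries and 1112, 681, and 541 TPM in the WT libraries.

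After *hfb2* and *hex1*, the genes with the highest mean TPM in WT were TRIREDRAFT_80980, TRIREDRAFT_121579, and TRIREDRAFT_123616. TRIREDRAFT_80980 had 1.52, 1.38, and 1.59 TPM in the Δ*nsd3* libraries on glucose and 4.30, 5.33, and 1.90 TPM in the WT libraries. At 8 h on cellulose, it had 386, 540, and 361 TPM in the Δ*nsd3* libraries and 4465, 3683, and 4052 TPM in the WT libraries. It was thus a gene of a few TPM on glucose in both strains, and its difference was −3.26 at 8 h (SE 0.28) and −0.88 on glucose. It did not meet the rule with a pseudocount of 5, with the median of ratios, or with quantile normalization. TRIREDRAFT_121579 had 553, 952, and 576 TPM in the Δ*nsd3* libraries at 8 h and 1855, 2278, and 2162 TPM in the WT libraries, a difference of −1.64. TRIREDRAFT_123616 had 594, 809, and 546 TPM in the Δ*nsd3* libraries at 8 h and 1717, 1532, and 1898 TPM in the WT libraries, a difference of −1.41. Apart from *hfb2*, the 66 genes together made up 0.436% to 1.27% of the listed TPM in the Δ*nsd3* libraries and 0.765% to 3.03% in the WT libraries. In WT, 5 of the 66 averaged 1000 TPM or more over the 12 libraries, 16 averaged 100 to 1000 TPM, 40 averaged 5 to 100 TPM, and 5 averaged under 5 TPM.

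The most negative mean difference over the 4 conditions was that of TRIREDRAFT_66788. This gene had 0.043, 0.171, and 0.188 TPM in the Δ*nsd3* libraries on glucose and 15.7, 14.2, and 2.86 TPM in the WT libraries. At 8 h on cellulose, it had 0.852, 1.87, and 0.633 TPM in the Δ*nsd3* libraries and 42.1, 50.5, and 49.4 TPM in the WT libraries. At 48 h, it had 20.7, 14.1, and 10.4 TPM in the Δ*nsd3* libraries and 75.9, 29.7, and 39.1 TPM in the WT libraries. The strains came closest at 48 h, where the difference was −1.56, against −4.55 at 8 h (SE 0.43 each). TRIREDRAFT_54768 followed, with 1.64, 1.95, and 1.56 TPM in the Δ*nsd3* libraries on glucose and 39.7, 49.4, and 20.9 TPM in the WT libraries, a difference of −3.71. TRIREDRAFT_5095 had 0.839, 1.36, and 0.805 TPM in the Δ*nsd3* libraries on glucose and 19.3, 22.1, and 23.0 TPM in the WT libraries. Its difference was −3.50 on glucose, −2.31 on glycerol, −2.81 at 8 h, and −2.48 at 48 h (SE 0.18 each), so that it stayed under −2 throughout.

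The size of the difference varied between conditions to very unequal degrees among the 66 genes, with a median range over the 4 conditions of 0.98. The widest range was 3.36, in TRIREDRAFT_70803. It had 2.15, 1.21, and 1.22 TPM in the Δ*nsd3* libraries on glucose and 3.11, 3.92, and 2.86 TPM in the WT libraries, a difference of −0.78. At 8 h on cellulose, it had 2.05, 3.01, and 2.97 TPM in the Δ*nsd3* libraries and 55.7, 73.3, and 62.1 TPM in the WT libraries, a difference of −4.14. The narrowest range was 0.22, in TRIREDRAFT_50583, with differences between −1.60 and −1.38. It had 2.79, 1.05, and 1.93 TPM in the Δ*nsd3* libraries on glucose and 7.37, 7.80, and 7.37 TPM in the WT libraries. TRIREDRAFT_69963 was next, with a range of 0.26 and differences between −1.44 and −1.18. On glucose, it averaged 0.655 TPM in the Δ*nsd3* libraries and 3.53 TPM in the WT libraries. At 8 h on cellulose, it averaged 13.5 TPM in the Δ*nsd3* libraries and 31.3 TPM in the WT libraries. The added 1 shrinks the difference most where TPM is low, so these narrow ranges do not show a constant change in TPM. No test of these ranges was made, because they come from the differences that chose the genes.

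At the limit of −0.6, the weakest difference of TRIREDRAFT_77093 was −0.60 on glucose, and that of TRIREDRAFT_120313 was −0.61 at 48 h. Just outside lay TRIREDRAFT_65490, at −0.599 on glycerol, and TRIREDRAFT_2521, at −0.596 at 8 h. At the limit of 10%, TRIREDRAFT_110151 had 10.7% and TRIREDRAFT_102497 had 11.8% of the WT mean TPM, while the nearest genes left out, TRIREDRAFT_111251 and TRIREDRAFT_70991, had 6.95% and 6.23%. TRIREDRAFT_110151 was listed at 0 TPM in 1 of the 3 Δ*nsd3* libraries on glycerol and in 2 of 3 at 8 h, where the WT libraries had 3.38, 1.81, and 3.61 TPM.

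The response to the carbon source averaged over both strains was not itself used by the rule, apart from the spread within groups, and was tested. Each contrast was the mean of its value in both strains. A strain difference of equal size in both conditions does not enter this mean, but one that changes between them does. The counts over both strains are therefore given with those by strain. On glycerol, 21 of the 66 genes (31.8%) were higher than on glucose by limma, with the same limits in either direction, against 10.8% of all genes tested. Another 9 (13.6%) were lower, against 8.71% of all genes. The median log2 fold change was 0.36 for the 66 genes and 0.05 for all genes. After the transfer to cellulose, 19 of the 66 (28.8%) were higher at 8 h than on glycerol and 3 (4.55%) were lower, against 10.8% and 2.71% of all genes. From 8 h to 48 h, 11 (16.7%) became higher and 4 (6.06%) became lower, against 4.66% and 4.34% of all genes. In the Δ*nsd3* strain alone, 21 were higher and 7 lower on glycerol (17.7% and 7.19% of all genes), 14 and 3 at 8 h (8.87% and 2.03%), and 14 and 1 at 48 h (4.6% and 4.26%). In WT alone, 24 were higher and 13 lower on glycerol (8.72% and 13.4%), 27 and 3 at 8 h (20.9% and 5.03%), and 9 and 6 at 48 h (6.42% and 9.35%). The counts by strain come from the fit to all libraries. They are descriptions, since errors in 1 strain enter both them and the strain differences that chose the genes. The 66 genes were chosen together for another property, and the shares of all genes are given only as background.

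TRIREDRAFT_80980 and *hfb2* rose most on glycerol relative to glucose. TRIREDRAFT_80980 had 457, 510, and 316 TPM on glycerol in the Δ*nsd3* libraries, with a log2 fold change of 7.63 over both strains (SE 0.20, adjusted p = 1.6e-18). In the WT libraries on glycerol, it had 1529, 1363, and 600 TPM, so that replicate 3 was the lowest in both strains. The log2 fold change of *hfb2* was 5.51 (SE 0.16, adjusted p = 5e-18), with 5.52 in the Δ*nsd3* strain and 5.51 in WT. TRIREDRAFT_54768 (4.65) and TRIREDRAFT_123616 (4.52) rose next. In the opposite direction, TRIREDRAFT_105840 fell most on glycerol. It had 2.94, 2.11, and 2.55 TPM on glycerol and 35.9, 40.1, and 38.4 TPM on glucose in the Δ*nsd3* libraries. In the WT libraries, it had 6.87, 8.46, and 5.65 TPM on glycerol and 72.8, 59.2, and 76.5 TPM on glucose (log2 fold change −3.31, SE 0.17, adjusted p = 1.3e-13). TRIREDRAFT_102500 had a log2 fold change of −2.49 (SE 0.18, adjusted p = 3.4e-11).

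At 8 h on cellulose relative to glycerol, TRIREDRAFT_65925 and TRIREDRAFT_120697 rose most. TRIREDRAFT_65925 had 17.3, 11.7, and 13.4 TPM at 8 h and 2.46, 2.33, and 1.43 TPM on glycerol in the Δ*nsd3* libraries. The WT libraries had 32.3, 29.8, and 31.5 TPM at 8 h and 5.04, 4.83, and 4.88 TPM on glycerol (log2 fold change 2.37, SE 0.12, adjusted p = 2.5e-13). The response was of like size in both strains, with a log2 fold change of 2.30 in the Δ*nsd3* strain and 2.44 in WT. TRIREDRAFT_120697 had a log2 fold change of 2.10 (SE 0.16, adjusted p = 2.4e-10). TRIREDRAFT_44362 fell most, with 32.0, 18.8, and 19.0 TPM at 8 h and 215, 211, and 186 TPM on glycerol in the Δ*nsd3* libraries. The WT libraries had 169, 159, and 208 TPM at 8 h and 1012, 1111, and 677 TPM on glycerol (log2 fold change −2.74, SE 0.19, adjusted p = 6.1e-11). TRIREDRAFT_54768 had a log2 fold change of −2.07 (SE 0.16, adjusted p = 3.4e-10), and TRIREDRAFT_105840, at −1.02, was the third gene called lower.

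At 48 h relative to 8 h on cellulose, TRIREDRAFT_122448 and TRIREDRAFT_66788 rose most. TRIREDRAFT_122448 had 13.1, 12.3, and 12.4 TPM at 48 h and 1.51, 2.06, and 1.42 TPM at 8 h in the Δ*nsd3* libraries. The WT libraries had 54.3, 19.7, and 37.3 TPM at 48 h and 18.2, 13.8, and 13.4 TPM at 8 h (log2 fold change 1.75, SE 0.19, adjusted p = 8.2e-08). The log2 fold change of TRIREDRAFT_66788 was 1.42 over both strains (SE 0.30, adjusted p = 0.00066), with 2.91 in the Δ*nsd3* strain and −0.0803 in WT, so the change over both strains does not describe WT. TRIREDRAFT_44362 (−1.81, SE 0.19, adjusted p = 9.2e-08) and TRIREDRAFT_77093 (−1.57, SE 0.16, adjusted p = 3e-08) fell most. TRIREDRAFT_54768, at −1.43, was also called lower, so over both strains this gene and TRIREDRAFT_44362 were called lower at each step after glycerol. In TRIREDRAFT_54768, this last step was −0.24 in the Δ*nsd3* strain and −2.62 in WT. In TRIREDRAFT_44362, it was −0.94 in the Δ*nsd3* strain and −2.68 in WT. For both genes, the step was called lower in WT but not in the Δ*nsd3* strain. TRIREDRAFT_2489, at −1.18, was the other gene called lower.

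**Figure D3:**
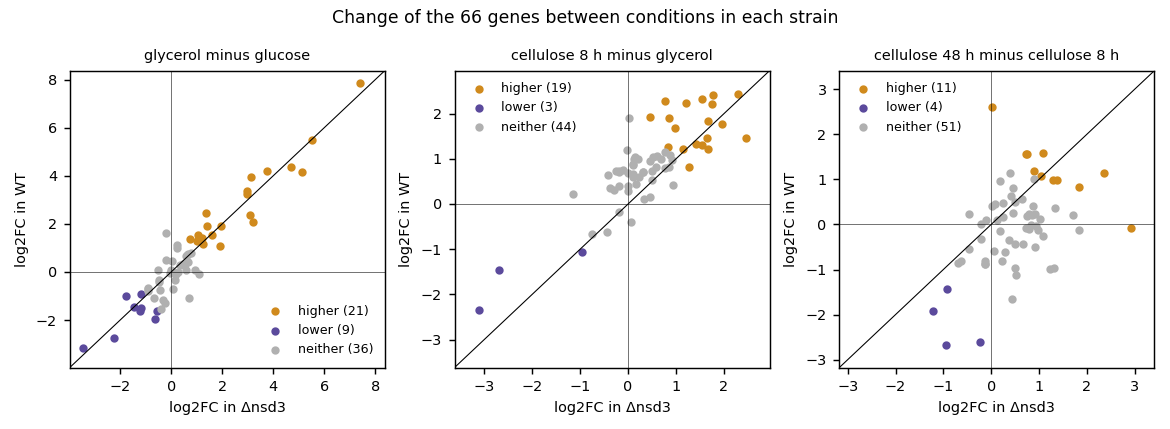
Log2 fold change of the 66 genes in the Δ*nsd3* strain (horizontal) and in WT (vertical) for the 3 contrasts between conditions, with the line of equal change. Colours mark genes called higher or lower over both strains, 21 and 9 on glycerol, 19 and 3 at 8 h on cellulose, and 11 and 4 at 48 h.

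The condition of the highest mean was the same in both strains in 40 of the 66 genes. The Δ*nsd3* strain had its highest mean at 48 h in 48 of the genes, at 8 h in 7, on glycerol in 6, and on glucose in 5. WT had its highest mean at 48 h in 30, at 8 h in 24, on glucose in 8, and on glycerol in 4. Over all genes tested, the WT mean was highest at 48 h in 26.5%, at 8 h in 38.1%, on glucose in 26.0%, and on glycerol in 9.38%. The Δ*nsd3* mean was highest at 48 h in 31.4% of them, at 8 h in 23%, on glycerol in 22.1%, and on glucose in 23.4%, and the condition was the same in both strains in 50.3%. These counts follow in part from the strain differences, and no test was made of them.

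**Figure D4:**
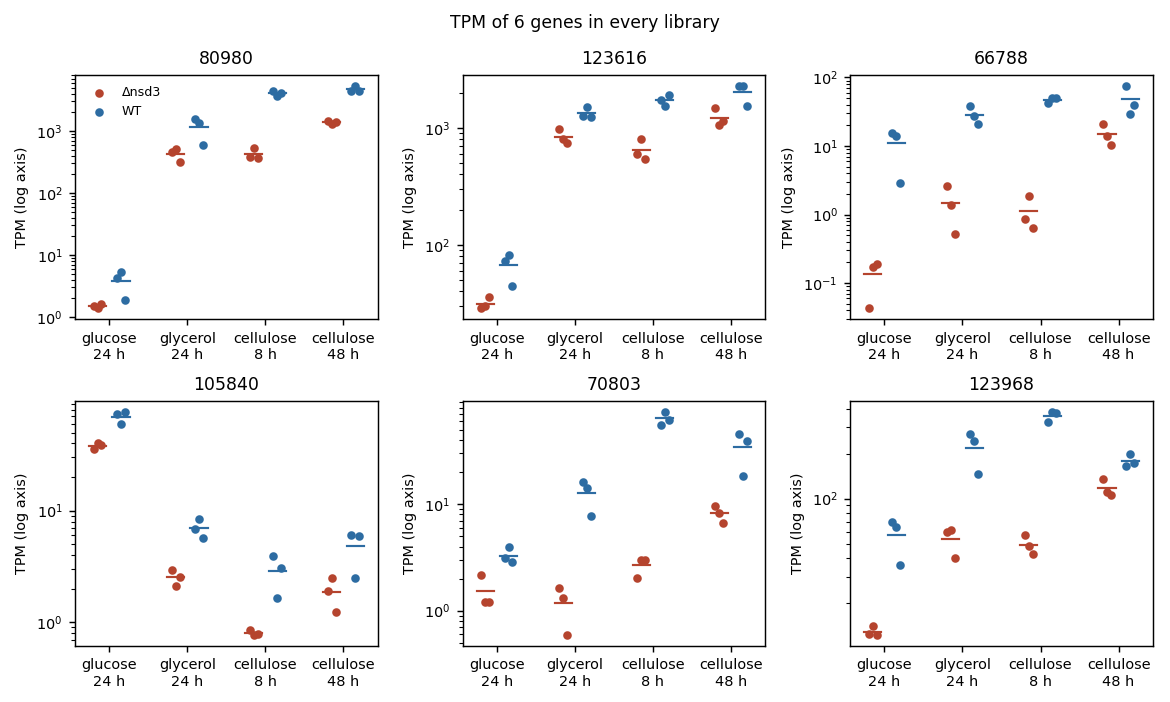
TPM of 6 genes (numbers of their TRIREDRAFT_ identifiers) on log axes, by condition, with a point for each library (Δ*nsd3* red and left of WT blue) and lines at means of 3. TRIREDRAFT_105840 is highest on glucose in both strains, and from 8 h to 48 h on cellulose TRIREDRAFT_70803 and TRIREDRAFT_123968 go up in the Δ*nsd3* strain and down in WT.

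Over the 8 group means of log2(TPM + 1), the genes most like *hfb2* were TRIREDRAFT_123616 (r = 0.995), TRIREDRAFT_80980 (r = 0.991), and TRIREDRAFT_56546 (r = 0.989). The 8 points share their libraries among all genes, and they vary by condition as well as by strain, so these values are descriptions. From glucose to glycerol, the log2 fold change over both strains was 5.51 for *hfb2*, 4.52 for TRIREDRAFT_123616, 7.63 for TRIREDRAFT_80980, and 3.10 for TRIREDRAFT_56546. The largest strain difference of *hfb2* was −2.42. The least like *hfb2* was TRIREDRAFT_105840 (r = −0.797). Within groups, the 66 genes also deviated together. Their mean pairwise correlation of deviations from the group means was 0.30 over the 24 libraries, against 0.18 for all genes tested. The rule used the spread within groups. The 66 genes also had more TPM, with a median WT mean of 28.9 against 21.0 for all genes tested. This comparison is therefore a description and was not tested. In WT replicate 3 on glycerol, only 4 of the 66 genes lay above their group mean, against 30.7% of all genes, with a median deviation of −0.24. In WT replicate 3 on glucose, 15 lay above it, against 53.1% of all genes, with a median deviation of −0.18, and *hfb2* had 1242 TPM there, against 2497 and 2538 TPM in the other WT replicates.

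Some of the 66 genes lay close together in the gene order of RefSeq. That source named no chromosome, so a new sequence was taken to begin wherever the start coordinate dropped, which gave 62 sequences. Genes on either side of a boundary missed in this way would be counted as neighbours. Another of the 66 was an immediate neighbour for 6 genes (9.09%), while 1.39% of the 8684 other measured genes had one of the 66 next to them. Within 3 genes on either side, the shares were 18.2% (12 genes) and 3.97%. Adjacent genes can share reads, and whether the counting used strand is not given in the sources used here. TRIREDRAFT_119860 and TRIREDRAFT_54768 were neighbours, with TRIREDRAFT_44362 on the far side of TRIREDRAFT_53053. TRIREDRAFT_56512 and TRIREDRAFT_57010 formed another pair, and TRIREDRAFT_65925 and TRIREDRAFT_65969 the third. In the last pair, TRIREDRAFT_65969 had 29.6, 24.3, and 24.6 TPM in the Δ*nsd3* libraries on glucose and 94.8, 100.2, and 70.5 TPM in the WT libraries, a difference of −1.71. TRIREDRAFT_56512 had 9.02, 7.83, and 6.67 TPM in the Δ*nsd3* libraries on glucose and 20.5, 17.8, and 19.6 TPM in the WT libraries, a difference of −1.21. Its neighbour TRIREDRAFT_57010 had a difference of −1.25 there.

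Of the genes next to one of the 66 that were not themselves chosen or left out by the 10% limit, 101 were tested. By limma, 17 of them (16.8%) were called lower in the Δ*nsd3* strain on glucose, 13 (12.9%) on glycerol, 18 (17.8%) at 8 h, and 10 (9.90%) at 48 h. The shares of all genes called lower were 6.45%, 3.1%, 8.11%, and 4.16% in the same order. Another 3 of the neighbours were called higher on glucose, 4 on glycerol, 9 at 8 h, and 4 at 48 h, against 3.14%, 7.39%, 9.13%, and 9.29% of all genes. The neighbours named here and below were picked after their values were seen, and most were lower in some condition. Others were not. TRIREDRAFT_120391, next to TRIREDRAFT_56512, was called in no condition. Neither was TRIREDRAFT_122995, next to TRIREDRAFT_65925, with 0.61 on glucose and 0.64 at 8 h, nor TRIREDRAFT_4939, next to TRIREDRAFT_65969. TRIREDRAFT_53053, between TRIREDRAFT_54768 and TRIREDRAFT_44362, had log2 fold changes of −2.77 on glucose (adjusted p = 9.8e-08), −1.90 on glycerol, and −2.69 at 8 h, and was not called at 48 h (−0.24, adjusted p = 0.49). TRIREDRAFT_103112, on the other side of TRIREDRAFT_44362, had −3.19 on glucose (adjusted p = 7.4e-09) and −0.64 at 48 h (adjusted p = 0.055). TRIREDRAFT_119860 in this stretch had few TPM, with 0.410, 0.461, and 0.351 in the Δ*nsd3* libraries on glucose and 2.94, 2.27, and 2.05 in the WT libraries.

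A further stretch held TRIREDRAFT_102497 and TRIREDRAFT_102500. TRIREDRAFT_102497 had 4.88, 8.76, and 2.76 TPM in the Δ*nsd3* libraries at 48 h and 138, 51.6, and 98.8 TPM in the WT libraries, a difference of −3.91 (SE 0.31). In the other conditions, its difference was between −1.44 and −1.26. Next to it lay TRIREDRAFT_43701, which met the rule but was left out at 1.77% of the WT mean TPM. TRIREDRAFT_73631, on its other side, was called lower on glucose, on glycerol, and at 48 h, but its log2 fold change was 0.96 at 8 h (adjusted p = 0.038). TRIREDRAFT_102500 had 8.34, 7.58, and 7.71 TPM in the Δ*nsd3* libraries on glucose and 44.6, 44.5, and 40.9 TPM in the WT libraries, a difference of −2.32 (SE 0.25). Its neighbour *axe1* (TRIREDRAFT_73632), an acetyl xylan esterase, was called lower at 48 h only, and its log2 fold change on glucose was −0.04 (adjusted p = 0.94).

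The last stretch held TRIREDRAFT_110151, TRIREDRAFT_123204, and TRIREDRAFT_66788. TRIREDRAFT_123204 averaged 44.5 TPM in the Δ*nsd3* libraries at 8 h and 236 TPM in the WT libraries, a difference of −2.39, and its difference at 48 h was −0.73. Next to TRIREDRAFT_110151, TRIREDRAFT_110152 was called lower on glucose (−2.90, adjusted p = 1.7e-06), on glycerol (−3.68), and at 8 h (−2.32), but not at 48 h (−0.49, adjusted p = 0.27). TRIREDRAFT_66647, next to TRIREDRAFT_123204, was called lower on glucose (−1.43, adjusted p = 2e-06) and on glycerol (−1.72), and had −0.56 at 8 h and −0.55 at 48 h. TRIREDRAFT_123205, next to TRIREDRAFT_66788, was called lower on glucose (−1.08) and on glycerol (−1.36), but had 0.08 at 8 h and 0.81 at 48 h.

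**Figure D5:**
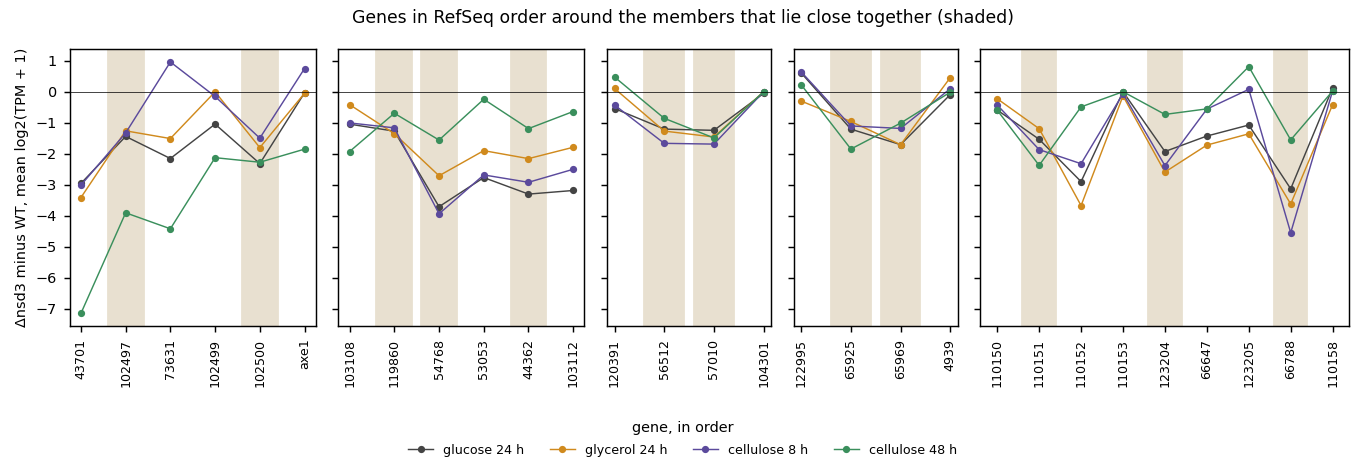
Difference in mean log2(TPM + 1), Δ*nsd3* minus WT, for genes in RefSeq order around 5 groups of the 66 genes (shaded) that lie within 3 genes of each other, with a line for each condition. In the second panel, TRIREDRAFT_53053, which is not one of the 66, is at −2.77 on glucose and −0.24 at 48 h.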

How the data were processed

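The authors trimmed reads of stranded polyA libraries with Trim Galore 0.6.7, mapped them with HISAT2 2.2.1, and counted them with featureCounts. They deposited TPM for 8755 genes in 24 libraries, summing to 838257 to 886039 TPM a library over these genes. Without read counts, the DESeq2 model of the study was not repeated.

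The rule was applied to log2(TPM + 1). Condition contrasts were fitted with limma (lmFit, eBayes with trend, 1 mean per group, all 24 libraries) to 7933 genes with at least 1 TPM in 3 libraries. Two-sided p-values received the Benjamini-Hochberg adjustment across every gene tested. Exact permutation of 3 libraries against 3 cannot go below p = 0.1 and was not used. The fit was tested on simulated data.

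The genes and lists were chosen with earlier results of these data known. Named genes were those with a symbol, the 5 highest in WT, the 4 with the most negative mean difference, those nearest either limit, the 2 largest changes in each direction of each contrast, the widest and narrowest ranges, and adjacent members. Function groups and promoter motifs were not analysed here. Alternatives were pseudocounts of 0.1 and 5, other scalings, filters, limits, and variance models, replicate blocks, and each library left out. Contrasts within each strain were taken from the same fit to all 24 libraries. Depth was taken from RefSeq gene lengths. Same-numbered libraries of both strains deviated together on glycerol and at 48 h, as correlations of deviations from group means over 0.1 in every pair. Fits ran in limma 3.58.1 under R 4.3.3, and the other steps in Python 3.11.15 with pandas 2.3.3, numpy 2.4.6, and, for plots, matplotlib 3.10.9.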

Additional observations from a re-analysis of the deposited data

Results flagged for a closer look

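In 7 of the 66 genes, all libraries of 1 condition lay above all those of another in 1 strain and below all of them in the other strain. This is 10.6% of the 66, against 17.2% of all genes tested, so the property was not more frequent among them. The difference was not tested, since the strain difference chose the genes. For 6 of them (9.09%) this was so from 8 h to 48 h on cellulose, against 3.49% of all genes, and for 1 (1.52%) between glycerol and glucose, against 8.18%. TRIREDRAFT_70803 changed by 1.32 (log2) in the Δ*nsd3* strain and by −0.96 in WT. TRIREDRAFT_123968 had 136, 111, and 106 TPM at 48 h and 56.7, 48.5, and 42.6 TPM at 8 h in the Δ*nsd3* libraries, a change of 1.24. In the WT libraries, it had 166, 198, and 174 TPM at 48 h and 324, 379, and 375 TPM at 8 h, a change of −0.999. *hfb2* (TRIREDRAFT_119989) changed by 1.09 in the Δ*nsd3* strain and by −0.25 in WT. TRIREDRAFT_123204 changed by 0.52 in the Δ*nsd3* strain and by −1.13 in WT, TRIREDRAFT_56546 by 0.66 in the Δ*nsd3* strain and by −0.42 in WT, and TRIREDRAFT_122870 by 0.51 in the Δ*nsd3* strain and by −0.44 in WT. In the seventh gene, TRIREDRAFT_110853, the glycerol libraries lay apart from the glucose libraries, by 0.70 in the Δ*nsd3* strain and by −1.08 in WT.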

How the results depend on the processing

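The number of genes was 34 with a pseudocount of 5 and 25 at a limit of −1, in both cases all among the 66. With a library left out, it was 62 to 101, the most without WT replicate 2 at 48 h. Only 50 of the 66 were kept in all 24 of these sets, and 15 of the libraries removed at least 1 gene when left out. The rule gave 86 genes with the median of ratios (58 of the 66) and 91 with quantile normalization (56 of the 66). Under these and the rescaling without *hfb2*, 55 of the 66 were kept, and 30 when both pseudocounts were also required. The median of ratios and quantile normalization both dropped TRIREDRAFT_80980, TRIREDRAFT_77093, TRIREDRAFT_120697, and *hex1* of the named genes. The rescaling dropped TRIREDRAFT_110151. Quantile normalization also dropped *hfb2*, whose difference at 48 h became 0 because it ranked first in both strains. The median of ratios moved the median of all genes tested on glycerol to −0.01, against 0.29 without it, and the lower value of the 66 genes held under every scaling except for *hfb2* in that case. The median difference on glucose became −1.58 with a pseudocount of 0.1, −0.85 with 5, and −1.14 with quantile normalization, and at 8 h −1.24 with a pseudocount of 5. A pseudocount of 5 also lowered the calls to 4 lower on glycerol, 11 higher at 8 h, and 5 higher at 48 h. The contrast within the Δ*nsd3* strain, from the same fit to all libraries, gave 1 lower at 48 h. TRIREDRAFT_66788 changed sign at 48 h in the contrast within WT (−0.0803). With each library left out, the median difference was −1.40 to −1.24 on glucose, −1.36 to −1.19 on glycerol, −1.69 to −1.55 at 8 h, and −1.30 to −1.12 at 48 h. The calls were then 19 to 21 higher and 7 to 10 lower on glycerol, 17 to 23 and 2 to 3 at 8 h, and 10 to 13 and 4 at 48 h. Across conditions, same-numbered libraries did not correlate over 0.1 in every pair of any contrast (−0.265 to 0.369), so the numbers were not taken as pairs there. From 8 h to 48 h, the picture was mixed. Replicates 1 and 3 had 0.339 and 0.265 in the Δ*nsd3* strain and 0.136 and 0.369 in WT, while replicate 2 had −0.122 and −0.255. Between the strains, every same-numbered pair correlated over 0.1 on glycerol (0.114 to 0.202) and at 48 h (0.174 to 0.291), but not on glucose or at 8 h. A strain fit with these pairs as a replicate block was added after the data were seen. It called 17, 13, 18, and 10 neighbours lower on glucose, on glycerol, at 8 h, and at 48 h, as without the block. It changed no call of *hfb1*, *hfb3*, *tef1a*, *axe1*, TRIREDRAFT_53053, TRIREDRAFT_103112, TRIREDRAFT_73631, TRIREDRAFT_110152, or TRIREDRAFT_66647. In the contrasts between conditions, the replicate block gave 21 higher and 9 lower, 19 and 3, and 11 and 4, as without it. Across all alternatives, single named genes lost a condition call 19 times and gained one 32 times. The cause of these shifts was not tested. The promoter window was not analysed.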
